A study of Mus musculus with 11 samples.

Results

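The 10 genes described here, Jph2, Casq2, Ryr2, Pln, Kcnma1, Chrm2, Pgm5, Rbpms2, Ano1 and Etv1, belong to the calcium handling and adhesion of gut smooth muscle and to the pacemaker cells beside it. They were named one by one from a table of 7868 genes, with their lower level in tumor-bearing colon already known, so that lower level is a description here and not a finding. All 10 were listed in the table. Colon tissue came from 11 female wild-type mice, 4 naive and 7 given azoxymethane (AOM, a carcinogen) at 10 mg/kg on day 0. From day 7 they drank 1.5% DSS (dextran sodium sulfate, which injures the colon lining) in 3 rounds that lasted 5 days and were separated by a 16-day rest, and tissue was taken on day 70. Naive mice received neither agent and were kept for the same span. The study used this comparison to look at glia, macrophage and interleukin-1 genes in colitis-associated tumors, and the muscle genes were not its subject. The labels call every sample colon tissue. The table's first line calls the AOM/DSS tissue tumor and gives full thickness, which keeps the muscle coat, for the naive colon, while the study's supplement gives full thickness for the tumors. The share of muscle in each piece was not analysed here.

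Smooth muscle of the gut contracts when calcium enters through the plasma membrane or leaves the sarcoplasmic reticulum (SR), the internal calcium store. Release channels, store proteins and a pump that refills the store act at junctions where the SR lies close to the plasma membrane, while potassium channels opened by calcium and by voltage limit the response. The rhythm comes from the interstitial cells of Cajal, which lie within the muscle coat and pass slow waves to it, and acetylcholine from enteric neurons adds drive through muscarinic receptors.

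Each value below is the authors' normalized mean over a group, from a 3′ tag library in which a transcript gives reads from its end whatever its length. Values per mouse, their spread and the realized depth of each library were not analysed here, so no value carries an error and no difference was tested. The table lists genes below a p-value limit of 0.05 in the authors' own comparison, so a gene had to differ between both groups to be in it, and a gene that is not listed has no value here and is not called unchanged. In bulk tissue, fewer cells of a type and less RNA per cell cannot be told apart.

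All 10 genes had a lower mean in AOM/DSS than in naive colon, as did 42.7% of all listed genes, and 7 of 10 were lower by 2-fold or more, against 17.1% of all listed genes. Because the genes were chosen on this contrast, nothing is read from those differences. Their order was uneven. The SR genes and Chrm2 stood 3.43-fold to 5.89-fold lower, Pgm5 and Rbpms2 2.56-fold and 2.37-fold lower, and the pacemaker genes and Kcnma1 1.68-fold to 1.94-fold lower. The median log2 ratio of AOM/DSS over naive means was −1.57 over the 10 genes and 0.44 over all listed genes, so the listed genes as a whole leaned the other way. Summed over the 10 genes, the mean level was 537.0 in naive and 217 in AOM/DSS tissue.

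**Figure D1:**
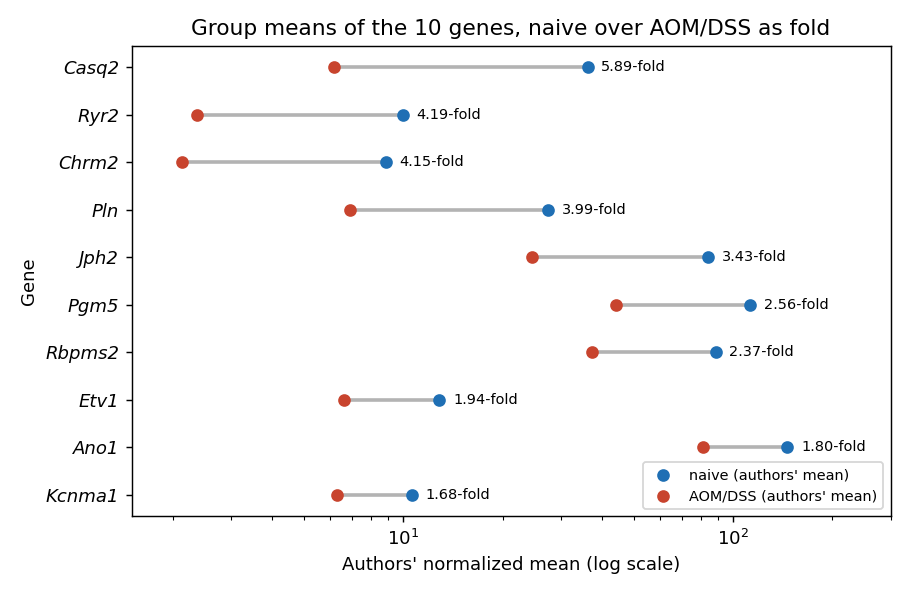
Authors' normalized mean of each of the 10 genes in naive (blue) and AOM/DSS (red) colon on a log axis, ordered by fold, with naive over AOM/DSS as a fold beside each line. Every red point lies left of its blue point, and the gap runs from 1.68-fold for Kcnma1 to 5.89-fold for Casq2; no error bar is drawn because the table gives means alone.

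Among the SR genes, Casq2 showed the widest gap. Casq2 (chromosome 3, 102086415 to 102146514, plus strand, mouse build GRCm38) encodes calsequestrin 2, the main calcium-binding protein inside the store in heart, and had a mean of 36.2 in naive and 6.14 in AOM/DSS colon. That left 17.0% of the naive level, and 3.66% of all listed genes had a lower ratio. Ryr2 (chromosome 13, 11553102 to 12106945, minus strand), the calcium release channel of the SR, stood at 9.95 against 2.37, 4.19-fold lower. Pln (chromosome 10, 53337667 to 53345987, plus strand) encodes phospholamban, a small membrane protein that restrains the SR calcium pump, and stood at 27.4 against 6.87, 3.99-fold lower. Jph2 (chromosome 2, 163336242 to 163397993, minus strand), whose product junctophilin 2 ties the SR to the plasma membrane, was the most abundant of these 4 with 84.04 in naive and 24.5 in AOM/DSS tissue, 3.43-fold lower. In log2 units the 4 SR genes lay between −2.56 and −1.78. Their coding sequences differ widely in size, from 156 bases for Pln to 14898 bases for Ryr2, and both stood close to 4-fold lower. In GENCODE M21 the last exon of Pln overlaps exons of Cep85l and Gm47644 on the opposite strand, neither of which was listed. The strand setting of the counting is not stated, so whether reads of Pln and these genes were told apart there is not known.

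Of the membrane genes, Chrm2 had a wide gap and Kcnma1 a narrow one. Chrm2 (chromosome 6, 36388084 to 36528414, plus strand) encodes the M2 muscarinic acetylcholine receptor, the more abundant muscarinic subtype of gut smooth muscle, and stood at 8.83 in naive and 2.13 in AOM/DSS colon, 4.15-fold lower. It had the lowest mean of the 10 genes in both groups. The first exon of Chrm2 overlaps exons of a gene on the opposite strand, the noncoding 9330158H04Rik, whose mean was 13.8 in naive and 2.09 in AOM/DSS tissue, a log2 ratio of −2.73 against −2.05 for Chrm2. That overlap lies at the start of Chrm2, far from the 3′ end that these libraries read, and without known strand counting the reads of this pair remain uncertain. Kcnma1 (chromosome 14, 23289431 to 24014491, minus strand), the pore of the large-conductance potassium channel opened by calcium and voltage, had the smallest gap of the 10, with 10.6 in naive and 6.31 in AOM/DSS tissue. Their naive means were closer to each other than their AOM/DSS means, with no spread to set against that difference.

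Pgm5 and Rbpms2 stood near each other in level and in ratio. Pgm5 (chromosome 19, 24683016 to 24861855, minus strand) encodes aciculin, a relative of phosphoglucomutase found at the adhesion sites of muscle cells, and stood at 113 in naive and 44.04 in AOM/DSS colon, 2.56-fold lower. Rbpms2 (chromosome 9, 65629648 to 65660528, plus strand), an RNA-binding protein that in chick controls the maturation of gut smooth muscle, stood at 88.6 against 37.4, 2.37-fold lower. After Ano1 these were the most abundant of the 10 genes in both groups.

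Ano1 and Etv1, linked to the interstitial cells of Cajal, were lower by under 2-fold. Ano1 (chromosome 7, 144588549 to 144751974, minus strand) encodes the calcium-activated chloride channel through which these cells start slow waves, and is also expressed by some epithelial cells. It had the highest mean of the 10 genes, 146 in naive and 81.1 in AOM/DSS colon, 1.80-fold lower. Etv1 (chromosome 12, 38779380 to 38870484, plus strand), an ETS-family transcription factor that these cells depend on in mouse, stood at 12.9 against 6.62, 1.94-fold lower. The mean of Ano1 was 11.4 times that of Etv1 in naive and 12.3 times in AOM/DSS tissue. Kit, the receptor that defines the interstitial cells of Cajal, was not listed, so no value of it stands beside Ano1 and Etv1. With the table's means alone, the label of Ano1 and Etv1 as pacemaker cell genes rests on background and could not be checked against Kit.

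The 10 genes lie on 10 different chromosomes, and none of the motifs searched in their promoters, which the choice of genes did not use, was found in all 10. RefSeq windows of 300 bases on GRCm38, from 250 before to 50 after each start, matched all 10 genes with 12 windows. These starts are not always the outermost gene positions given above. On the minus strand, the window of Ano1 ends at 144738823 and the gene at 144751974. The window of Kcnma1 ends at 24004455 and the gene at 24014491. Other starts of these genes were not searched. An exact CArG box, the site of serum response factor that many smooth muscle genes carry, was found on either strand in none of the 10 genes, against 1.81% of the 27025 genes with a window. A match says nothing of binding, and no match says only that these letters are not in this window. A MEF2 site was found in Casq2 alone (3.70% of all genes) and TATAAA in Pln and Etv1 (15.7%). The E-box CAGCTG was found in Jph2, Pln, Pgm5, Rbpms2 and Ano1 (18.3%), and GGGCGG, the GC box, in 7 of 10 genes (38.2%). CpG dinucleotides ran from 1 in the window of Pln to 48 in that of Rbpms2, beside a median of 7 and quartiles of 3 and 20 over all windows. Casq2, Pln and Rbpms2 are printed 5′ to 3′ on the strand of the gene to show this range, with the motif matches in capitals, which are MEF2 in Casq2, TATAAA and CAGCTG in Pln, and CAGCTG and GGGCGG or its reverse complement in Rbpms2, where some GGGCGG matches overlap.
Casq2, chr3:102086165-102086464, plus strand: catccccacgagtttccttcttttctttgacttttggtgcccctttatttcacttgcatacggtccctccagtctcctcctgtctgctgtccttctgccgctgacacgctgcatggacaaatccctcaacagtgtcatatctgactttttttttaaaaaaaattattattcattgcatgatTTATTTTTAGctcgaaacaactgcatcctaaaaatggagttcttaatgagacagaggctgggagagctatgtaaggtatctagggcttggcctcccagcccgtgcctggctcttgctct
Pln, chr10:53337436-53337735, plus strand: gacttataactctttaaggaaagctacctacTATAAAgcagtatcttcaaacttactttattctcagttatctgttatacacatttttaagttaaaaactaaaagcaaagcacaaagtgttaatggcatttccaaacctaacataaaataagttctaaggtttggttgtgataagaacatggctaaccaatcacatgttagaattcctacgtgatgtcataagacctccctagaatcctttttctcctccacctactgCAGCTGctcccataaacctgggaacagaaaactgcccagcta
Rbpms2, chr9:65630332-65630631, plus strand: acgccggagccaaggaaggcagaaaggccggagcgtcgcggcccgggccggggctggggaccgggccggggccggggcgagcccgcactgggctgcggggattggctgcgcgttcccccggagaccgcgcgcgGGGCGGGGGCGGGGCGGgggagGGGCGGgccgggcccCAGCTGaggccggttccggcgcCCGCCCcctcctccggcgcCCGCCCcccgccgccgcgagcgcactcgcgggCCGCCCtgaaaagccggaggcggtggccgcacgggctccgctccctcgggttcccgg

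The MEF2 match of Casq2 lies 69 to 60 bases before the start, within a stretch rich in A and T. In Pln, TATAAA lies 219 to 214 bases before the start, far from the usual place of a TATA box, and CAGCTG lies 9 to 14 bases into the transcript. With 6 and 1 CpG, the windows of Casq2 and Pln lay under the median of all windows, while that of Rbpms2 had the most of the 12. The window of Kcnma1 followed with 36. A relation of CpG counts to the gap between groups was not tested.

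Levels spread more widely among the 10 genes in AOM/DSS tissue. Naive means ran from 8.83 for Chrm2 to 146 for Ano1, a 16.5-fold span, and AOM/DSS means from 2.13 to 81.1, a 38.1-fold span between the same genes. The first 4 places (Ano1, Pgm5, Rbpms2 and Jph2) and the last 2 (Ryr2 and Chrm2) were held by the same genes in both groups. Casq2 held the fifth place in naive and the eighth in AOM/DSS tissue, behind Pln, Etv1 and Kcnma1. Casq2, Kcnma1, Etv1 and Pln had AOM/DSS means from 6.14 to 6.87, and without values per mouse their order there has no spread behind it.

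**Figure D2:**
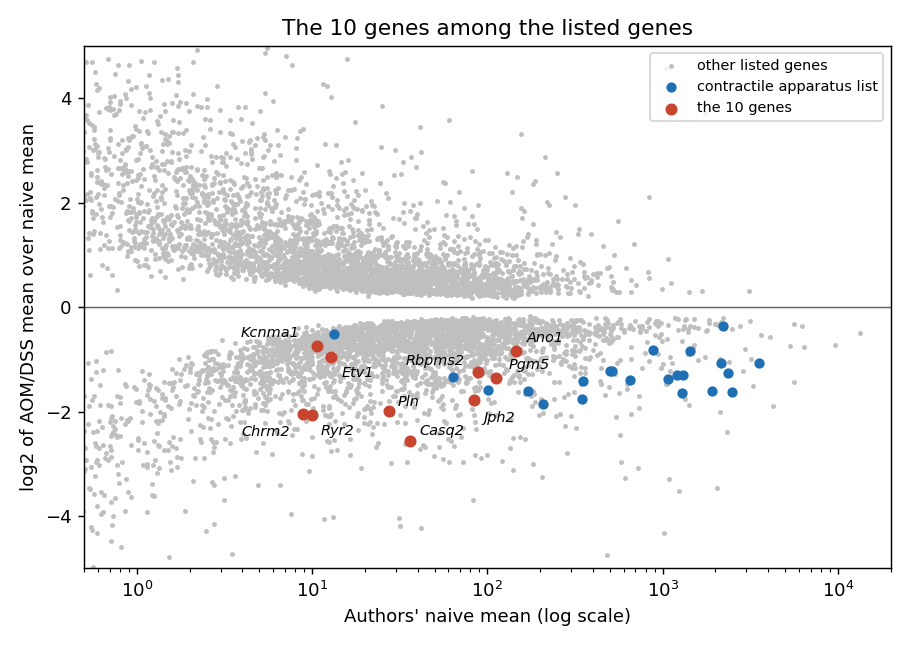
The log2 ratio of AOM/DSS over naive means (vertical axis) against the authors' naive mean (log axis) for the listed genes inside the axis limits (grey), the contractile apparatus list (blue) and the 10 genes (red, named). The 10 genes lie between −2.56 and −0.75, and the empty band around 0 is where genes were not listed.

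The 10 genes were set beside a list of 24 genes of the contractile apparatus. Of these, 22 were listed, all 22 with a lower AOM/DSS mean and 18 by 2-fold or more, with a median log2 ratio of −1.32 against 0.44 over all listed genes. Over all listed genes 42.7% were lower and 17.1% lower by 2-fold or more, shares that stand beside each list count below. Myh11, the smooth muscle myosin heavy chain, stood at 1307 in naive and 530.1 in AOM/DSS tissue, and Acta2, smooth muscle actin, at 3546 against 1690. Pdlim3, a cytoskeletal adaptor, had the lowest log2 ratio of the list at −1.85, followed by Synm, an intermediate filament protein, at −1.76, Myl9, a myosin light chain, at −1.65, and Des, desmin, at −1.63. With nothing added to the means, Casq2, Ryr2, Chrm2 and Pln lay below all 22 contractile genes. With 1 added to both means, Ryr2 and Chrm2 had log2 ratios of −1.70 and −1.65 and no longer lay below Pdlim3. Without that addition, the log2 ratios of Casq2, Ryr2, Chrm2 and Pln minus the list's median were −1.23, −0.74, −0.73 and −0.67. Jph2 differed from that median by −0.45 and had 1 contractile gene, Pdlim3, below it. Pgm5 and Rbpms2 differed from the median by −0.03 and 0.08. Etv1, Ano1 and Kcnma1 lay above it by 0.37, 0.48 and 0.58. These are differences between ratios of means, with no replicate spread to set them against, and that 6 of 10 genes lay under the median is not tested. Expressed per 1000 units of Myh11, Casq2 was 27.7 in naive and 11.6 in AOM/DSS tissue, and Ryr2 7.61 and 4.48. Pgm5 was 86.2 and 83.1 on this scale. Ano1 was higher in AOM/DSS tissue on this scale, at 153 against 112, and so was Kcnma1, at 11.9 against 8.10.

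Other listed genes of the SR were mostly lower as well, some by a small gap, with exceptions. In a list of 33 genes of the SR store, its release channels and its junctions, 16 were listed, 14 lower and 7 of these by 2-fold or more, with a median log2 ratio of −0.97. Without the 4 genes above, 12 were listed, 10 lower and 3 by 2-fold or more, with a median of −0.86 and a lowest log2 ratio of −1.46, and the remaining 17 had no value. Ryr3, a second release channel, stood at 2.59 against 1.12, a log2 ratio of −1.22 beside −2.07 for Ryr2. Jph4, another junctophilin, stood at 4.25 against 2.19, a log2 ratio of −0.96 beside −1.78 for Jph2. Because Ryr2 and Jph2 were chosen for a lower level, a wider gap than that of a relative was favoured in advance. Nothing is read from these pairs. Jph3, also a junctophilin, had low means of 1.52 against 0.553 and a log2 ratio of −1.46. Tmem38a, a counter-ion channel of the SR, stood at 12.01 against 5.42. Gaps were smaller for Itpr1, another release channel, at 42.1 against 33.0 (log2 ratio −0.35), for Asph (−0.41) and for Fkbp1b (−0.69). Calr, the general calcium store protein of the endoplasmic reticulum, was higher in AOM/DSS tissue (767 against 510.4), as was Fkbp1a (345 against 238), an FK506-binding protein that attaches to release channels. Both are expressed by most cell types. Atp2a2, the calcium pump that phospholamban restrains, and Casq1, the other calsequestrin, were not listed. Atp2a3, another calcium pump of the list, stood at 306 against 174, a log2 ratio of −0.82.

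Partners at the plasma membrane were lower as well. Of 17 genes for calcium entry and extrusion, 10 were listed and all 10 were lower, 5 by 2-fold or more, with a median log2 ratio of −0.97. Cacna1c, the pore of the L-type calcium channel that faces the SR at junctions, stood at 17.5 in naive and 10.1 in AOM/DSS tissue, a log2 ratio of −0.79, and Cacnb2, a β subunit of such channels, at 10.1 against 2.67, a log2 ratio of −1.92. Cacna1g, a T-type calcium channel, stood at 5.35 against 1.63, and Atp2b4, a plasma membrane calcium pump, at 257 against 95.4. Jph2 was 4.80 times the level of Cacna1c in naive and 2.43 times in AOM/DSS tissue. Of 18 potassium channel genes 7 were listed, all lower, 6 of them by 2-fold or more. Kcnma1 was the exception and had the smallest gap of the 7. Kcnmb1, the β1 subunit that tunes the Kcnma1 channel in smooth muscle, stood at 32.6 against 15.6, 2.10-fold lower beside 1.68-fold for Kcnma1. Kcnk3, a background potassium channel, stood at 27.6 against 7.91, and Kcnd3, a voltage-gated channel, at 9.03 against 3.32.

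The muscarinic pair differed in size, which is not read further because Chrm2 was chosen for its lower level. Chrm3, the M3 receptor that triggers contraction, stood at 9.85 in naive and 4.74 in AOM/DSS tissue, 2.08-fold lower, and the ratio of Chrm2 to Chrm3 was 0.897 in naive and 0.450 in AOM/DSS tissue. Chrm2, described above as the more abundant subtype of gut smooth muscle, thus had the lower mean of the pair in both groups. These means are of bulk tissue and not of muscle alone. In the list of 22 receptor and contraction signalling genes, 17 were listed, 15 lower and 10 by 2-fold or more, with a median log2 ratio of −1.28. Without Chrm2, 16 were listed, 14 lower and 9 by 2-fold or more, with a median of −1.17. Mylk, the myosin light chain kinase through which calcium starts contraction, stood at 3288 against 1160. Plcb4, a phospholipase C that acts downstream of receptors, stood at 41.2 against 15.02, and Prkg1, the cyclic GMP-dependent kinase that relaxes smooth muscle, at 8.26 against 3.29. Rhoa and Gna12, which act in nearly all cells, were the 2 that were higher, by 1.21-fold and 1.24-fold.

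For Pgm5, the list of the dystrophin complex, adhesion plaques and caveolae held 23 genes, of which 11 were listed, 10 lower and 9 by 2-fold or more, with a median log2 ratio of −1.17. Without Pgm5 itself, 10 were listed, 9 lower and 8 by 2-fold or more, with a median of −1.13. Vcl, which encodes the adhesion plaque protein vinculin, had the widest gap among the list genes named here that were lower, 55.97 in naive against 7.41 in AOM/DSS tissue, a log2 ratio of −2.92 beside −1.35 for Pgm5. Cav1, the coat protein of caveolae, stood at 165 against 51.95, Cav3, its muscle form, at 5.23 against 1.83, and Sntb1, a syntrophin, was the gene of the list that was higher, at 4.62 against 2.57. For Rbpms2, the list of 18 smooth muscle regulators had 5 listed, 4 lower and 2 by 2-fold or more. Without Rbpms2 itself, 4 were listed, 3 lower and 1 by 2-fold or more, with a median log2 ratio of −0.67. Rbpms, the paralog of Rbpms2, stood at 161 against 109, a log2 ratio of −0.57 beside −1.25 for Rbpms2. Nothing is read from this pair either, since Rbpms2 was chosen for its lower level. Gata6, a transcription factor of smooth muscle and other tissues, stood at 62.3 against 36.6. Myocd, the myocardin coactivator of smooth muscle genes, stood at 3.06 against 0.924. Mef2d, a MEF2 transcription factor, was the gene of the list that was higher, at 36.1 against 21.9. Of 7 genes in the list for the interstitial cells of Cajal 4 had values and all were lower, Ano1 and Etv1 among them. Without Ano1 and Etv1, 2 had values. These were Thbs4, a matrix protein, lower by 3.50-fold (187 against 53.6), and Kitl, the ligand of Kit, lower by 1.26-fold.

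**Figure D3:**
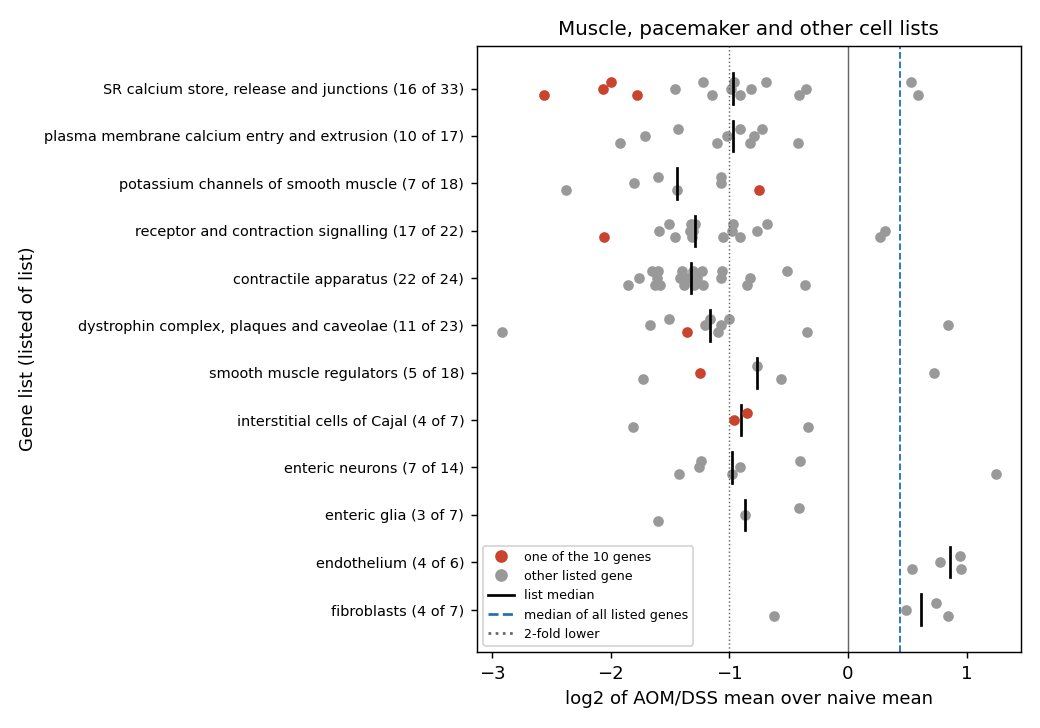
The log2 ratio of AOM/DSS over naive means for each listed gene (points) of 12 lists, with the number listed of the number in the list; red points are the 10 genes, black bars are list medians, the dashed line is the median of all listed genes (0.44) and the dotted line marks 2-fold lower. With the 10 genes included, the muscle lists have medians between −1.44 and −0.77, while those of endothelium and fibroblasts are 0.86 and 0.61.

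Markers of other cell types also differed between the groups, in different directions. The summed mean of the 22 listed contractile genes was 24835 in naive and 11111 in AOM/DSS tissue. Among markers of leukocytes, 5 of 6 were listed, all higher by 2-fold or more, as were 31.7% of all listed genes, with a summed mean of 17.4 in naive and 573 in AOM/DSS tissue. S100a8, a neutrophil protein, made up most of that sum (1.50 against 451), and the other 4 summed to 15.9 and 122. Of 14 enteric neuron genes 7 were listed, 6 of them lower, with sums of 113 and 84.6, and of 7 glial genes 3 were listed, all lower, with sums of 103 and 66.2. Beside these counts and the epithelial count that follows, 42.7% of all listed genes were lower. Among epithelial markers 5 of 9 were listed and 4 of these were lower, with sums of 7106 and 4500, so colon epithelium was present in both groups. None of the listed markers of these lists was at 0 in either group. The part of these differences in the levels of the 10 genes was not tested, and the muscle content of the tissue pieces and the treatment cannot be told apart.

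By level in both groups, the listed genes nearest to the median point of the 10 genes (31.5 in naive and 6.74 in AOM/DSS) were Trnp1, Gstm3, Ppfia3, Defb45 and 4930528J11Rik, at distances of 0.05 to 0.27 log2 units. This measure of likeness rests on 2 means per gene.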

How the data were processed

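QuantSeq FWD 3′ mRNA libraries (Lexogen) were made from 4 naive and 7 AOM/DSS colon samples, numbered in the labels as biological replicates. The authors trimmed reads, aligned them with STAR to mm10, quantified them to Ensembl transcripts and normalized gene counts in Partek Flow, with cutadapt also named in the submitters' processing notes. How they scaled the counts is not stated. The deposited table holds this normalized signal as the authors' least-squares mean per group, with 0.0001 in place of 0. It also holds columns of the authors' own comparison (p-value, FDR and fold change), which were not used. The p-value column was read once, and none of 7868 genes exceeded 0.05. The study's methods give a nominal sequencing depth for these libraries, but the table holds no total per sample, so the realized depth is unknown.

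Ratios of AOM/DSS over naive means were computed with pandas 2.3.3, with a 2-fold limit and no pseudocount or filter. Without a replicate spread, an alternative counts as a change past 1.5 times. Summaries and motif searches were tested on simulated data. The 10 genes and 18 gene lists were chosen with earlier results of these data known. Besides the 10 genes, up to 4 genes per list and direction with the largest ratio and means of at least 1, and known partners, were to be named. A gene that this rule selects is not reported here. Other genes, such as Ryr3, Jph3, Jph4, Tmem38a, Cacna1c, Rbpms, Myocd and 9330158H04Rik, and the motifs other than CArG were chosen after values were seen. The same holds for Itpr1, Asph, Fkbp1b, Atp2a3 and Msln. Of the listed names, 7727 are in GENCODE M21, which gave gene positions.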

Additional observations from a re-analysis of the deposited data

How the results depend on the processing

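Adding 1 or 0.1 to both means cannot change which mean is larger. Centring log2 ratios on the median of all listed genes, which is 0.44, can only lower ratios already below 0. That all 10 genes kept a lower AOM/DSS mean under these settings was thus fixed in advance and tests nothing. The median log2 ratio of the 10 genes and their count lower by 2-fold or more moved by less than 1.5 times under each alternative. Counts of list genes lower by 2-fold or more depended on the setting. With centring they were 12 SR genes, 9 genes of calcium entry, 4 regulators and 3 genes of the interstitial cells of Cajal. With a limit of 1.5-fold they were 12 SR genes, 9 genes of calcium entry and 3 genes of the interstitial cells of Cajal. With a limit of 3-fold they were 4 SR, 2 calcium entry, 3 potassium channel, 2 receptor and signalling, 7 contractile and 2 dystrophin complex, plaque and caveola genes and 1 regulator. With a mean of at least 10 in the higher group they were 4 SR genes, 6 receptor and signalling genes and 1 regulator, and with means of at least 1 in both groups 1 regulator. Over all 7868 listed genes 1342 were lower by 2-fold or more, and the count was 2327 with centring, 767 with 1 added, 870 with means of at least 1 in both groups, 596 with a mean of at least 10 in the higher group, 2249 at 1.5-fold and 678 at 3-fold. With 1 mismatch allowed in its A/T core, a CArG box was found in 1 of the 10 genes, Jph2 (11.3% of all genes). The sum of leukocyte markers without S100a8 was added after seeing the data. No paired analysis was possible because the columns hold group means with no replicate numbers, and for the same reason no mouse could be left out. The table of means holds no read total per library, only a nominal depth is stated in the methods, and so no detection limit could be set for low means such as those of Chrm2 and Ryr2.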

Other observations

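Ryr2, Casq2 and Pln are best known from heart muscle, and other genes of striated muscle were looked up beside them. Of 15 such genes 3 were listed. Tnnt2, the cardiac form of troponin T, stood at 112 in naive and 26.9 in AOM/DSS tissue, a log2 ratio of −2.06. Ckm, the muscle creatine kinase, stood at 54.5 against 14.5, a log2 ratio of −1.91. Tnni3, cardiac troponin I, was higher in AOM/DSS tissue, at 4.43 against 1.73. The striated myosin heavy chains Myh6 and Myh7 and the skeletal ones Myh1, Myh2 and Myh4 were not listed.

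Some genes of the gut wall stood higher in AOM/DSS tissue. The endothelial genes Pecam1, Cdh5, Kdr and Vwf had log2 ratios from 0.54 to 0.95. Tac1, which encodes substance P, was the enteric neuron gene that was higher, at 33.7 against 14.2. Msln, a marker of the mesothelium that covers the gut, stood at 6.89 against 0.411, while the other 3 mesothelial markers were not listed. Its naive mean was low, and its log2 ratio was 4.07, or 2.48 with 1 added to both means. Which cells gave this signal was not tested.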
